A study of Mus musculus with 6 samples.

Results

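Amino acid supply and tRNA charging were followed here through 40 genes of LLC (Lewis lung carcinoma) cells, a cell line from a mouse lung tumour, with and without CRISPR targeting of Calr, which encodes the endoplasmic reticulum (ER) chaperone calreticulin. The genes were taken by symbol from a list: 11 enzymes of amino acid and one-carbon synthesis, 9 amino acid transporters of the plasma membrane and 20 cytosolic aminoacyl-tRNA synthetase genes. All 40 were found among the 55291 gene symbols of the deposited table, and all passed the filter of a mean of at least 10 normalised counts that left 13199 genes for testing. Their means lay between 131 and 9684 normalised counts, so none was close to that filter.

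The Calr KO cells received Cas9 and a guide RNA against Calr, and the control cells, labelled WT, received Cas9 and a control guide, in both cases by transient delivery of plasmids. Both were cultured for 10 days, were otherwise untreated, and were collected 48 hours after seeding in 3 wells each, which gives 3 Calr KO and 3 control libraries. The design describes 1 cell population per group divided over wells, and does not say that either was cloned. The p-values therefore measure the spread between wells and not that between independent knockouts. In such bulk RNA, a smaller share of expressing cells and less RNA per cell cannot be told apart.

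Cells make some amino acids, import others through membrane carriers, and attach each to its tRNA with a dedicated synthetase before the ribosome can use it. When uncharged tRNA accumulates or unfolded protein burdens the ER, the kinases GCN2 and PERK phosphorylate the initiation factor eIF2α, and the transcription factor ATF4 is then translated more. ATF4 is known to raise the transcription of many genes of all 3 classes studied here, often through a C/EBP-ATF response element near their start. The ATF6 and XBP1 branches of the unfolded protein response act mainly on ER chaperones and folding enzymes.

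Several of these genes carry the core of that element close to their start, and their promoter sequences are printed here. The stretches below hold the 150 bases before the annotated start, from RefSeq on GRCm38.p6, on the strand of the gene and 5′ to 3′. They were chosen because a match to TGATGNAA, the core of the C/EBP-ATF response element, lies in them on either strand, and the capitals mark each match. Asns, asparagine synthetase, is on the minus strand at chr6:7693210-7693359. Pycr1, which makes proline, is on the minus strand at chr11:120643749-120643898. Slc7a11, the cystine importer, is on the minus strand at chr3:50443614-50443763. Aars, Gars and Tars, which charge alanine, glycine and threonine tRNAs, are at chr8:111033692-111033841 (plus), chr6:55037851-55038000 (plus) and chr15:11399659-11399808 (minus).
Asns: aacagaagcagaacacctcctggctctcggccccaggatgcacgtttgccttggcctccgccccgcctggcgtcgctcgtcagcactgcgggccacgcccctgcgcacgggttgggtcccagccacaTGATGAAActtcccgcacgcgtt
Pycr1: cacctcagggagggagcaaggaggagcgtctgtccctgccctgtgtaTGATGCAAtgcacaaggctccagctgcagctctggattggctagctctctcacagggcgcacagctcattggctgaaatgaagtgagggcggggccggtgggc
Slc7a11: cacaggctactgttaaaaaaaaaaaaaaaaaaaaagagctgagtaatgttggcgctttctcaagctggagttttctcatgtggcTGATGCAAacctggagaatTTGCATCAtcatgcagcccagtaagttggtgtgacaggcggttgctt
Aars: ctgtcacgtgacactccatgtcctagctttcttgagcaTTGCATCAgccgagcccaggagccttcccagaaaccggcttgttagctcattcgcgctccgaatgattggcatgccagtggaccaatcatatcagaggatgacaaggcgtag
Gars: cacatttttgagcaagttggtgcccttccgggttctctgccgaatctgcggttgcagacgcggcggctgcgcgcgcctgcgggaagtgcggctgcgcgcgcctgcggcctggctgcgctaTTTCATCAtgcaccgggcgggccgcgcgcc
Tars: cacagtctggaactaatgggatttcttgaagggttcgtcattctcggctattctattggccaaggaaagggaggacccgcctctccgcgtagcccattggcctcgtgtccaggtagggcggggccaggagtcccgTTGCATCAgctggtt

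For contrast, the promoter of Hspa5, the ER chaperone BiP, is shown with its match to the ER stress element, CCAAT and CCACG parted by 9 bases, in capitals. It lies on the plus strand at chr2:34771940-34772089 and holds no TGATGNAA in the window searched.
Hspa5: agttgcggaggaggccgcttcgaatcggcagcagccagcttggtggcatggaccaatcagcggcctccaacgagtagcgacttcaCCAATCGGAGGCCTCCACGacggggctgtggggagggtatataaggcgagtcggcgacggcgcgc

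Windows of 250 bases before to 50 after the start were available for 29 of the 40 genes and for 27025 genes in all, and each motif was searched on both strands. TGATGNAA was found in 9 of the 29 (31.0%), against 4.51% of all genes with a window. Besides the 6 genes shown, the carriers of the match were Slc1a4, Yars and Iars, with the match within a few bases of the start. Slc7a11 and Aars each held a pair of matches. Among the synthetases, those grouped here as known ATF4 targets held it in 5 of 8 windows and the others in 0 of 5. The core of the antioxidant response element bound by NRF2, TGACNNNGC, was in 9 of 29 windows, against 13.99% of all genes. The E-box CACGTG was in 5 of 29, against 8.09%. The ER stress element was in 0 of 29 and in 0.137% of all genes, and in 3 of the 5 windows of Calr, Hspa5, Hsp90b1, Pdia4 and Sdf2l1. In the windows of the 29 genes no match overlapped another, and the pair of TGACNNNGC matches of Slc6a9 came from windows of separate annotated starts. A match is a description of letters and was not tested as a binding site.

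**Figure D1:**
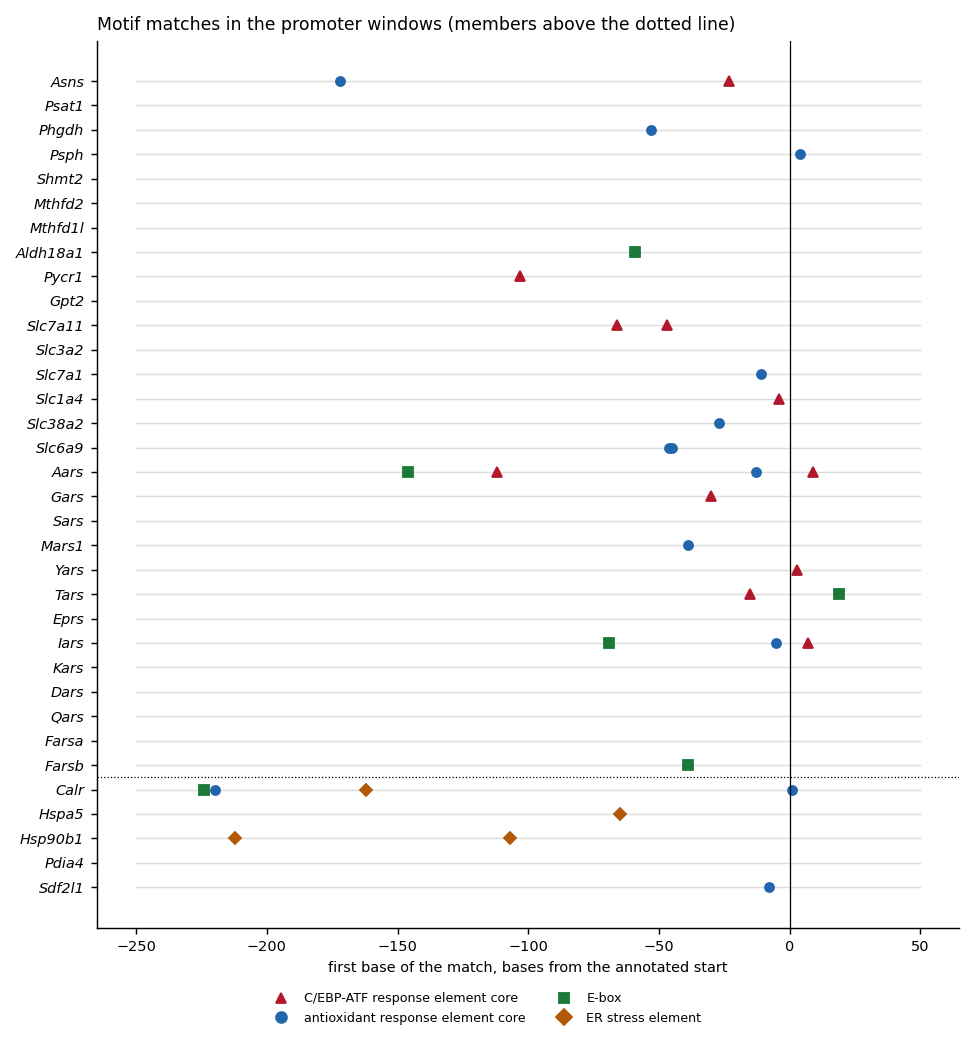
Positions of the 4 motifs in the promoter windows, in bases from the annotated start (horizontal axis), for the 29 amino acid and synthetase genes with a window (above the dotted line) and for Calr and 4 ER genes (below it). Triangles, the C/EBP-ATF response element core, occur in 9 of the 29, while diamonds, the ER stress element, occur only below the line, in 3 of 5.

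Targeting was visible in Calr itself, and markers bore on the identity of the cells. Calr had 4467, 4216 and 4453 normalised counts in Calr KO libraries, against 10711, 10202 and 11047 in control libraries (log2 change -1.28, SE 0.04, limma adjusted p = 7.9e-07). Krt8 and Krt18, keratins of simple epithelium, averaged 4621 and 294 over all 6 libraries. Epcam, Krt19, Sftpc, Nkx2-1 and Scgb1a1, which mark carcinoma epithelium or lung cells, were listed at 0 in every library. Of the mesenchymal markers, Vim averaged 37861, Fn1 4720 and Zeb1 1060, but Cdh2 only 0.161. The 4 immune markers summed to 1.03 to 10.4 in Calr KO and 5.77 to 12.1 in control libraries. Of these, Cd3e and Adgre1 were listed at 0 throughout. The 4 lung alveolar and airway markers summed to 0 in every Calr KO library and to 0 to 2.89 in control libraries. Sums of the 3 fibroblast markers, nearly all Pdgfra, also overlapped, at 1883 to 2192 in Calr KO and 1722 to 2190 in control libraries. Of the 3, Dcn alone did not overlap, at 33.2, 27.9 and 34.5 in Calr KO and 12.0, 16.7 and 17.7 in control libraries. Sums of the 3 remaining lists did not overlap. The 5 epithelial markers, nearly all Krt8, summed to 4961 to 5240 in Calr KO and 4632 to 4932 in control libraries. Krt8 and Krt18 each overlapped between the groups. For Krt8 the overlap was narrow, with 4634 in Calr KO replicate 2 and 4637 in control replicate 1. The 2 endothelial markers, both low, summed to 13.1 to 41.7 in Calr KO and 6.77 to 12.5 in control libraries, a narrow gap. Pecam1 overlapped between the groups. Cdh5 had 6.8, 5.91 and 37.4 in Calr KO and 3.59, 2.98 and 4.17 in control libraries, so the upper end rests on 1 library. The 4 mesenchymal markers, mostly Vim, summed to 40684 to 43123 in Calr KO and 44524 to 46568 in control libraries. Among the 4, only Vim did not overlap between the groups. The part of these shifts in the values below was not tested. Libraries summed to between 14040692 and 14099985 normalised counts, from an estimated 13571131 to 14919040 reads.

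None of the 40 genes differed between Calr KO and control cells by limma at an adjusted p of 0.05 (Benjamini-Hochberg, over every gene tested). Over all tested genes 37 passed (0.280%), 26 of them higher in Calr KO (0.197%) and 11 lower (0.0833%). Leaving out single libraries lowered that count: it was 20 when Calr KO replicate 1 was dropped, 21 when Calr KO replicate 3 was, and 22 when either control replicate 2 or 3 was. A single variance prior gave 2. The lowest adjusted p among the 40 was 0.465, for the lysyl-tRNA synthetase Kars. An unadjusted p under 0.05 was reached by 6 of the 40 (15%), namely Psat1, Aldh18a1, Gpt2, Slc7a11, Slc3a2 and Kars, against 8.88% of all tested genes. Among tested genes with a mean of at least 100 that share was 10%. Voom weights and a single variance prior also called 0 of the 40.

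Differences larger than a modest size were bounded by the wells. The 95% interval of the log2 change lay within -0.5 to 0.5 for all 40 genes, against 68.6% of all tested genes and 89.0% of those with a mean of at least 100. For scale, 4 ER folding genes were higher in the same Calr KO libraries. They were named with these data known and held ranks 4, 5, 9 and 10 by limma p. Other called genes changed less, such as Slc5a3 (-0.17) and Serpinh1 (0.23), or more, such as Lama3 (1.38), so called changes also lay within -0.5 to 0.5. Hspa5 had a log2 change of 0.50 (limma adjusted p = 0.00135), Hsp90b1, the chaperone GRP94, of 0.50 (7.46e-05), Pdia4, a disulfide isomerase, of 0.77 (7.46e-05) and Sdf2l1, a cochaperone of the ER, of 0.79 (0.00135). The log2 changes of the 40 ranged from -0.18 for Gpt2 to 0.20 for Slc7a11, with a median of -0.04 (-0.06 to -0.02 on leaving out 1 library, the last with control replicate 2 or Calr KO replicate 3 dropped), against a median of 0.00036 over all tested genes. Values were below 0 for 27 of the 40 (67.5%) and for 49.9% of all tested genes. For 23 of the 40 the change was smaller than the pooled standard deviation between wells. That share was not computed over all tested genes, so it does not set the 40 apart.

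**Figure D2:**
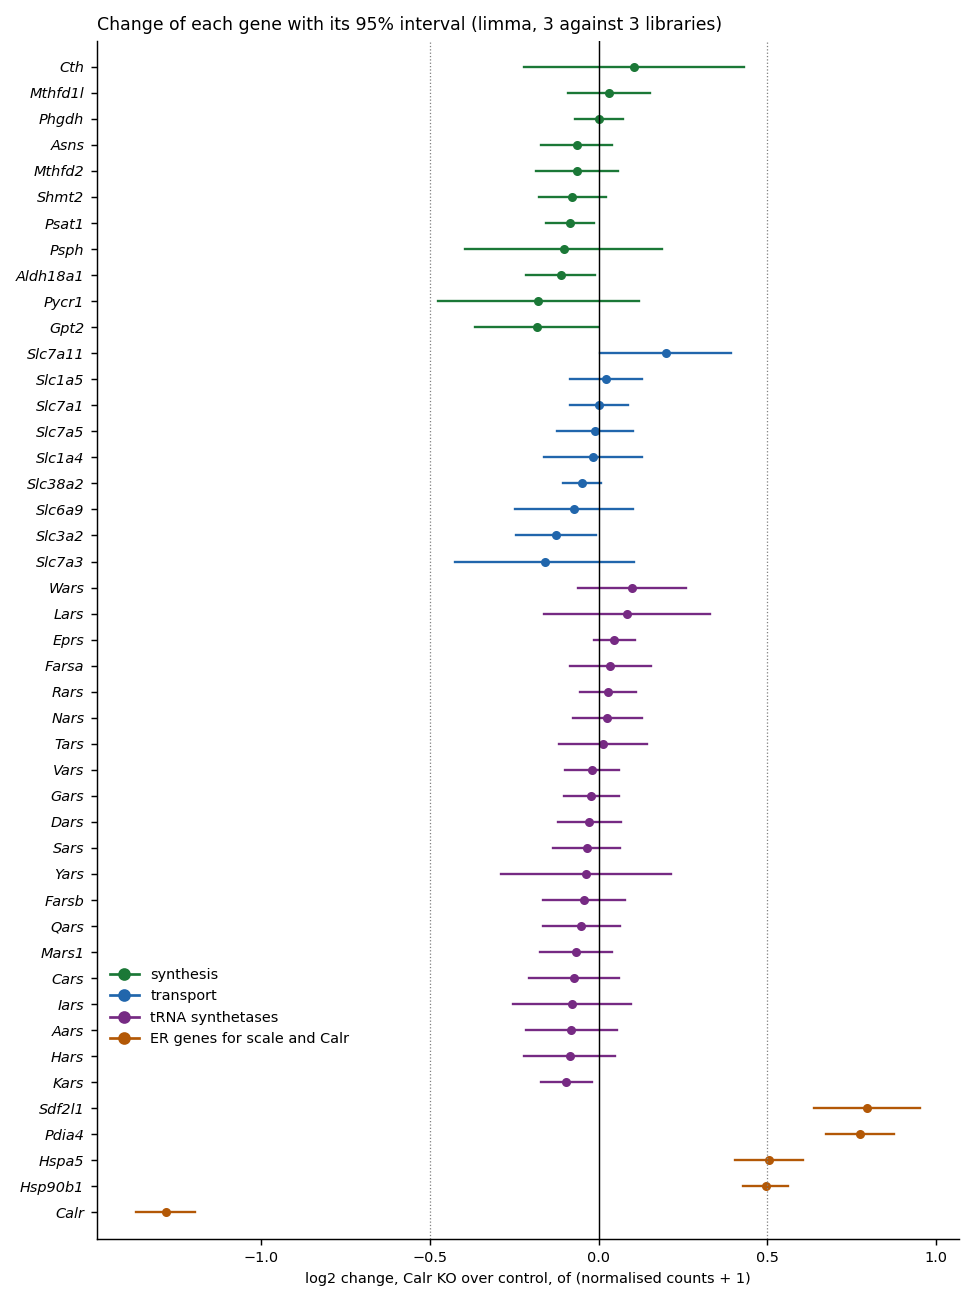
Log2 change of each gene in Calr KO over control cells (horizontal axis, of normalised counts + 1) with its 95% interval from limma, 3 against 3 libraries, coloured by class, with Calr and 4 ER genes for scale. Every one of the 40 intervals lies between -0.5 and 0.5, whereas Calr lies at -1.28 and the ER genes at 0.50 to 0.79.

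Among the 11 synthesis genes 0 passed the test, 3 had an unadjusted p under 0.05, and the median log2 change was -0.08. On leaving out 1 library that median lay between -0.10 and -0.04, the last with Calr KO replicate 1 dropped. Serine synthesis from a glycolytic intermediate runs through Phgdh, Psat1 and Psph. Psat1, the transaminase of the second step, had 6579, 6480 and 6460 normalised counts in Calr KO libraries, against 6758, 7144 and 6815 in control libraries. All Calr KO wells lay below all control wells, and the means were 6506 ± 63.6 in Calr KO wells and 6905 ± 208 in control wells (SD, n = 3 each), a log2 change of -0.09 (95% interval -0.16 to -0.01, limma adjusted p = 0.483). Such a separation of the groups, in either direction, occurred in 7 of the 40 (17.5%) and in 14.8% of all tested genes. It occurred in 15.8% of tested genes with a mean of at least 100. Calr KO wells were the higher ones in 2 of the 40, against 7.57% of all tested genes, and the lower ones in 5 of the 40, against 7.28%.

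Phgdh, the dehydrogenase of the first step, had 7250, 7578 and 7533 in Calr KO libraries, against 7490, 7241 and 7602 in control libraries. The groups overlapped throughout, and the log2 change of 0.0019 (interval -0.07 to 0.07, limma adjusted p = 0.992) turned sign with rescaling to equal totals and with voom weights. Psph, the phosphatase of the last step, had a log2 change of -0.10 with the widest spread between wells of the 40, a pooled SD of 0.22 on the log2 scale. A stretch of 10.4% of its exon bases lies opposite exons of Cct6a, and no source used here gives the strand setting of the counting, so its level is uncertain.

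Shmt2 splits serine into glycine and a one-carbon unit in mitochondria. It had 3724, 4165 and 3889 normalised counts in Calr KO libraries, against 4146, 4158 and 4109 in control libraries. The highest Calr KO well was above all control wells and the other two below them, and the log2 change was -0.08 (interval -0.18 to 0.02, limma adjusted p = 0.673). Mthfd2 and Mthfd1l, which carry that unit on to formate within mitochondria, had log2 changes of -0.06 and 0.03.

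Proline is made from glutamate by Aldh18a1 and then Pycr1. Aldh18a1 had 3725, 3795 and 3440 normalised counts in Calr KO libraries, against 3833, 3944 and 4061 in control libraries. The groups did not overlap, and the means of 3654 ± 188 in Calr KO and 3946 ± 114 in control wells (SD, n = 3 each) gave a log2 change of -0.11 (interval -0.21 to -0.01, limma adjusted p = 0.525). Pycr1, at 196 ± 21.8 in Calr KO cells and 222 ± 28.9 in controls (SD, n = 3 each), had a log2 change of -0.18 with overlapping groups.

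Gpt2, the mitochondrial transaminase that makes alanine, had the lowest log2 change of the 40. It had 1203, 1374 and 1082 normalised counts in Calr KO libraries, against 1342, 1407 and 1388 in control libraries. Calr KO replicate 2 lay inside the control range, and the log2 change was -0.18 (interval -0.37 to -0.0012, limma adjusted p = 0.559). Asns, whose promoter is shown above and which is among the best known ATF4 targets, had 2952 ± 159 in Calr KO cells and 3084 ± 59.5 in controls (SD, n = 3 each), a log2 change of -0.06. Cth, which releases cysteine from cystathionine and had the lowest mean of the 40, had 135 ± 9.77 in Calr KO cells and 127 ± 19.2 in controls (SD, n = 3 each), a log2 change of 0.10.

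**Figure D3:**
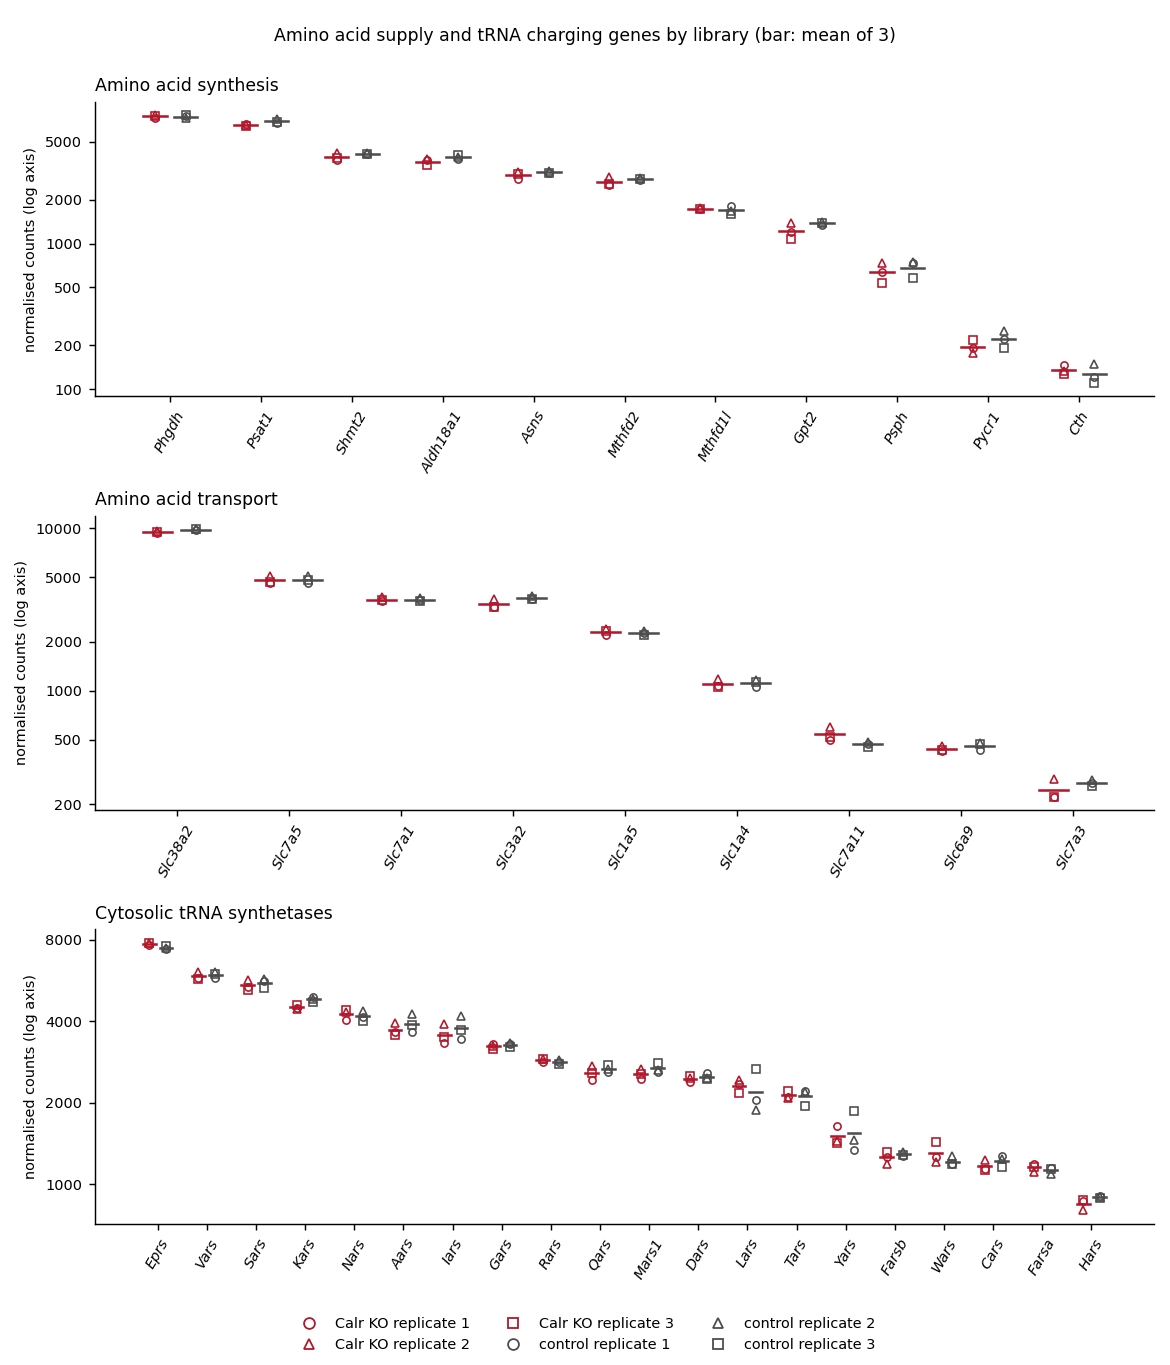
Normalised counts of the 40 genes in each library (log axis), by class, with Calr KO left of control for each gene, marker shapes for replicates and bars for the means of 3. The groups overlap for 33 of the 40 genes, and Psat1, Aldh18a1, Slc38a2, Kars and Hars sit lower and Slc7a11 and Eprs higher in all Calr KO libraries.

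Among the 9 transporters 0 passed the test, 2 had an unadjusted p under 0.05, and the median log2 change was -0.02. That median had the opposite sign without Calr KO replicate 3 (0.0080) or without control replicate 2 (0.016). Slc3a2 encodes CD98, the heavy chain that carries Slc7a5 and Slc7a11 to the cell surface. It had 3274, 3697 and 3272 normalised counts in Calr KO libraries, against 3657, 3850 and 3659 in control libraries. Calr KO replicate 2 lay within the control range and the other two below it, and the log2 change was -0.13 (interval -0.25 to -0.01, limma adjusted p = 0.536).

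Slc7a11, xCT, exchanges glutamate for cystine and so feeds glutathione synthesis. It had 499, 600 and 520 normalised counts in Calr KO libraries, against 467, 487 and 453 in control libraries. All Calr KO wells lay above all control wells, and the log2 change of 0.20 (interval 0.0046 to 0.39, limma adjusted p = 0.549) was the highest of the 40. Slc7a5, LAT1, brings in large neutral amino acids such as leucine. It had 4620, 5109 and 4671 in Calr KO libraries, against 4594, 5082 and 4831 in control libraries. The groups overlapped over most of their ranges, with a log2 change of -0.01 (interval -0.12 to 0.10, limma adjusted p = 0.971). CD98 heavy chain and its partners thus gave values on both sides of 0, and none passed the test.

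Slc38a2, SNAT2, a sodium-coupled carrier of small neutral amino acids, had the highest mean of the 40. It had 9371, 9647 and 9539 normalised counts in Calr KO libraries, against 9753, 9873 and 9923 in control libraries. The groups did not overlap, yet the log2 change was -0.05 (interval -0.11 to 0.0080, limma adjusted p = 0.63), with a pooled SD of only 0.02 between wells.

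Slc7a1 and Slc7a3 carry cationic amino acids such as arginine and lysine. Slc7a1 had 3568, 3767 and 3602 normalised counts in Calr KO libraries, against 3610, 3731 and 3583 in control libraries. The ranges overlapped, and the log2 change of 0.0016 (interval -0.08 to 0.09, limma adjusted p = 0.995) turned sign with equal totals, quantile normalisation and voom weights. Slc7a3 had 222, 285 and 223 in Calr KO libraries, against 271, 280 and 259 in control libraries. Calr KO replicate 2 was the highest of the 6 and the other two were the lowest, for a log2 change of -0.16 (interval -0.42 to 0.11, limma adjusted p = 0.759). Slc1a4 and Slc1a5, carriers of small neutral amino acids and of glutamine, had log2 changes of -0.02 and 0.02. Slc6a9, the glycine transporter GlyT1, had 437 ± 19.0 in Calr KO cells and 459 ± 23.4 in controls (SD, n = 3 each). Of its exon bases, 27.8% lie opposite exons of Ccdc24, which leaves its level uncertain too. Ccdc24 averaged 63.6 normalised counts against 448 for Slc6a9, whereas Cct6a averaged 4533 against 661 for Psph.

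Among the 20 synthetase genes 0 passed the test, 1 had an unadjusted p under 0.05, and the median log2 change was -0.03. Kars, which charges lysine tRNA and sits in the multi-synthetase complex, had 4482, 4450 and 4608 normalised counts in Calr KO libraries, against 4910, 4850 and 4707 in control libraries. The groups did not overlap, and the means of 4514 ± 83.7 in Calr KO and 4822 ± 104 in control wells (SD, n = 3 each) gave a log2 change of -0.10 (interval -0.17 to -0.02, limma adjusted p = 0.465). Eprs, the fused glutamyl and prolyl enzyme of the same complex, had 7667, 7760 and 7796 in Calr KO libraries, against 7404, 7480 and 7596 in control libraries. Here too the groups did not overlap, but with the Calr KO wells above, and the log2 change was 0.05 (interval -0.01 to 0.11, limma adjusted p = 0.674).

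Hars, the histidyl enzyme, had 866, 801 and 877 normalised counts in Calr KO libraries, against 909, 897 and 891 in control libraries. All Calr KO wells lay below the controls, with a log2 change of -0.09 (interval -0.22 to 0.05, limma adjusted p = 0.744), and 7.97% of its exon bases lie opposite those of its mitochondrial paralogue Hars2. Mars1, the methionyl enzyme of the complex, had 2459, 2661 and 2566 in Calr KO libraries, against 2597, 2653 and 2804 in control libraries. Those ranges overlapped, and the log2 change was -0.07 (interval -0.17 to 0.04, limma adjusted p = 0.744).

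Vars and Sars, the valyl and seryl enzymes, were named for their high means. Vars had 5800, 6070 and 5714 normalised counts in Calr KO libraries, against 5767, 6068 and 5985 in control libraries, with a log2 change of -0.02 (interval -0.10 to 0.06, limma adjusted p = 0.914). Sars had 5364, 5707 and 5213 in Calr KO libraries, against 5658, 5725 and 5299 in control libraries, with a log2 change of -0.04 (interval -0.13 to 0.06, limma adjusted p = 0.864). Both ranges overlapped almost wholly between the groups.

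The other 14 synthetase genes spanned log2 changes from -0.08 to 0.10, with every interval including 0. Aars, for alanine, had -0.08, Iars, for isoleucine, -0.08, Cars, for cysteine, -0.07, and Qars, for glutamine, -0.05. Values nearer 0 came from Yars for tyrosine (-0.04), Dars for aspartate (-0.03), Gars for glycine (-0.02) and Tars for threonine (0.01). Above 0 were Nars for asparagine (0.03), Rars for arginine (0.03), Lars for leucine (0.08) and Wars for tryptophan (0.10). Phenylalanine tRNA is charged by an enzyme of paired subunits, with log2 changes of 0.03 for Farsa and -0.04 for Farsb. Exon overlaps leave some of these levels uncertain too, with 14.3% of the exon bases of Aars shared with Exosc6 on the same strand and 9.47% of those of Farsb lying opposite Sgpp2. Exosc6 averaged 0 and Sgpp2 3.74 normalised counts, and what the overlaps added was not tested. Farsa lies 10054 bases from Calr on chromosome 8, and it had 1155 ± 39.0 normalised counts in Calr KO cells and 1127 ± 26.5 in controls (SD, n = 3 each).

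Grouping the synthetases by complex or by ATF4 gave medians close to 0 in each group. The 8 genes whose products join the multi-synthetase complex had a median log2 change of -0.04, and the other 12 of -0.03. The 13 grouped as ATF4 targets had a median of -0.02, and the other 7 of -0.04. Genes of all 3 classes with TGATGNAA in the promoter window had a median of -0.04 (n = 9, 7 below 0), and those with a window but no match had one of -0.06 (n = 20, 15 below 0). These medians are descriptions without a test.

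Levels were compared between genes after division by transcript length, taken as the median over the coding transcripts of the basic GENCODE M21 annotation. Phgdh had the highest level, 3938 ± 94.0 normalised counts per kb in Calr KO cells and 3932 ± 97.6 in controls (SD, n = 3 each). Psat1 followed at 2651 ± 25.9 per kb in Calr KO cells and 2814 ± 84.9 in controls, and Kars at 2118 ± 39.3 in Calr KO cells and 2263 ± 48.9 in controls. Serine synthesis thus held both of the top levels, while Psph, which completes it, stood far lower, with a ratio of Phgdh to Psph of 7.77 in Calr KO cells and 7.23 in controls.

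Slc38a2 was the transporter with the highest level per kb, 2043 ± 29.9 in Calr KO cells and 2114 ± 18.7 in controls, and its spread reached that of Sars, with 1997 ± 93.0 in Calr KO cells and 2046 ± 84.3 in controls. Slc3a2 had 1877 ± 135 per kb in Calr KO cells and 2046 ± 60.9 in controls. Slc7a5 amounted to 0.727 of Slc3a2 per kb in Calr KO cells and 0.672 in controls. Slc7a11 was only 0.049 of Slc3a2 in Calr KO cells and 0.039 in controls. At the low end, Cth had 74.6 ± 5.38 per kb in Calr KO cells and 69.8 ± 10.6 in controls, Pycr1 had 81.9 ± 9.11 in Calr KO cells and 92.9 ± 12.1 in controls, and Slc7a11 had 92.7 ± 9.12 in Calr KO cells and 80.5 ± 2.91 in controls. In Calr KO cells the spreads of Cth and Pycr1 overlapped. The subunits of the phenylalanyl enzyme were close to equal, with a ratio of Farsa to Farsb of 1.01 in Calr KO cells and 0.959 in controls.

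The 40 genes were quieter between wells than most. Their median pooled SD was 0.0642 on the log2 scale, against 0.123 over all tested genes, and many of the latter have lower counts. Eprs and Slc38a2 had the smallest pooled SD, 0.0158 and 0.0175, and Psph, Yars and Lars the largest, 0.215, 0.192 and 0.191. Together the 40 made up 0.818%, 0.860% and 0.826% of all normalised counts in Calr KO libraries, and 0.842%, 0.871% and 0.854% in control libraries. The ranges overlap, and replicate 2 is the highest of its group in both.

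**Figure D4:**
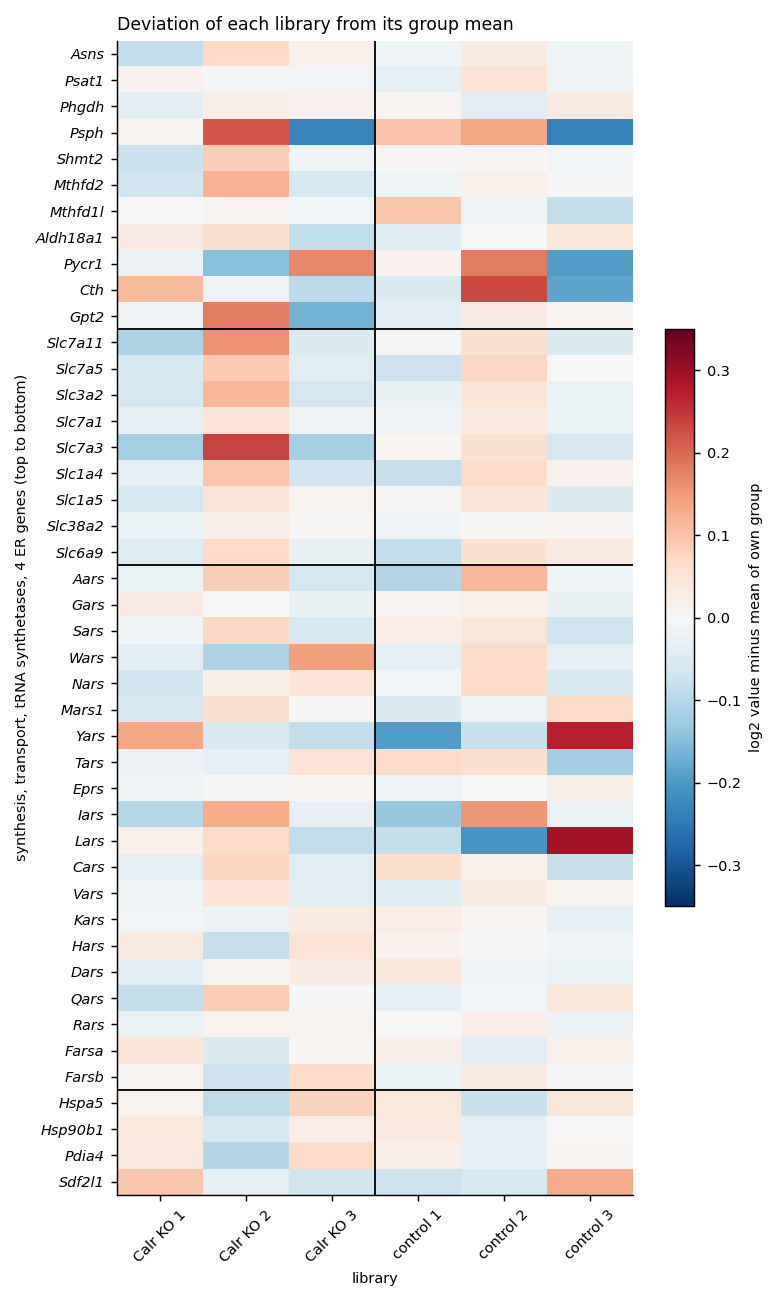
Log2 value of each gene in each library minus the mean of its own group (colour), with the classes in order from top to bottom and the 4 ER genes last, Calr KO libraries left of control. The column of replicate 2 is positive for all 9 transporters in both groups, and negative for all 4 ER genes.

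Replicate 2 stood apart within both groups for the transporters. In Calr KO cells replicate 2 held the highest value for 9 of 9 transporters, and in control cells for 8 of 9, with Slc38a2 the exception. It was the highest in both groups for 8 of 9 transporters and for 17 of all 40 genes (42.5%), against 11.8% of all tested genes. The mean deviation of the transporters from their group in that library was 0.10 on the log2 scale in Calr KO cells and 0.05 in controls. This count over both groups was chosen after the values were seen, and it has no test.

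Synthesis genes were highest in replicate 2 for 8 of 11 in Calr KO cells and 8 of 11 in controls, and synthetase genes for 8 of 20 in Calr KO cells and 9 of 20 in controls. The ATF4 regulators and effectors, a list of 16 tested genes, were highest in replicate 2 for 11 of 16 in Calr KO cells and 11 of 16 in controls. Their mean deviations were 0.12 in Calr KO cells and 0.13 in controls. For 8 of the 16 replicate 2 was highest in both groups. Other lists of the wider pathway, described below, had smaller shares. These were 3 of 17 other transporters, 5 of 20 mitochondrial synthetases and 3 of 14 folate cycle genes. Shares were lower still for scaffold and tRNA export (1 of 8), amino acid sensing (2 of 24) and other synthesis and breakdown (1 of 29). The 4 ER genes lay below their group mean in replicate 2 of both groups, with mean deviations of -0.07 in Calr KO cells and -0.05 in controls. Over all tested genes the mean deviation was 0.0009 in Calr KO cells and 0.0026 in controls. Replicate 2 had an estimated 13703160 reads in Calr KO cells, within the range of the other libraries, and 13571131 in controls, the lowest of the 6. The labels give all libraries the same batch, and what moved with that replicate number was not tested.

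**Figure D5:**
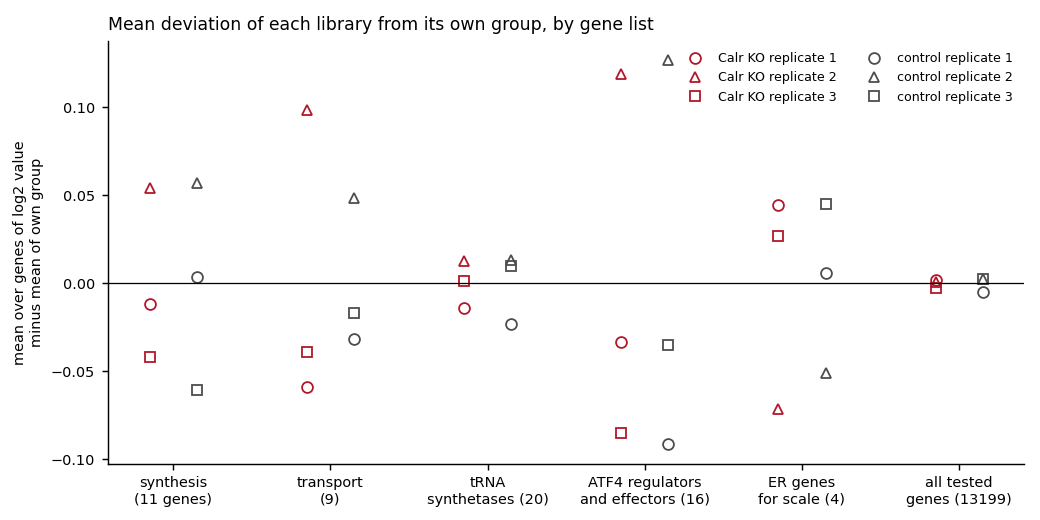
Mean over the genes of a list of the log2 value minus the mean of the own group, for each library (points, Calr KO left of control), by list. Replicate 2 lies above 0 in both groups for synthesis, transport and the ATF4 list and below 0 for the ER genes. For the synthetases it lies slightly above 0 in both groups (0.0126 in Calr KO, 0.0133 in control). All tested genes stay close to 0 in every library.

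The wider pathway was followed through 7 further lists holding 148 genes, of which 128 had a mean of at least 10 and were tested. None of the 128 passed the limma test, and 16 had an unadjusted p under 0.05 (12.5%, against 8.88% of all tested genes). Their median log2 change was 0.03, with 49 below 0 and 79 above.

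Other genes of amino acid synthesis and breakdown (29 tested, 0 passed) had a median log2 change of 0.03. Oat, ornithine aminotransferase, had 1557 ± 22.7 normalised counts in Calr KO cells and 1434 ± 27.5 in controls (SD, n = 3 each, log2 change 0.12, limma adjusted p = 0.505). Amt, a subunit of the glycine cleavage system, had 49.7 ± 11.8 in Calr KO cells and 72.8 ± 10.2 in controls, a log2 change of -0.56 with the same adjusted p. The folate cycle (14 tested, 0 passed) had a median of 0.08. Its genes with the smallest p were Aldh1l2, a mitochondrial formyl-tetrahydrofolate dehydrogenase, at 1504 ± 108 in Calr KO cells and 1677 ± 52.0 in controls (log2 change -0.16), and Slc25a32, the mitochondrial folate carrier, at 649 ± 57.3 in Calr KO cells and 555 ± 55.3 in controls (log2 change 0.23).

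Other transporters (17 tested, 0 passed) had a median log2 change of 0.05. Slc43a2, the leucine carrier LAT4, had 63.7 ± 16.5 normalised counts in Calr KO cells and 40.0 ± 9.54 in controls (log2 change 0.65), and Slc38a3, a glutamine carrier, had 15.4 ± 4.61 in Calr KO cells and 28.2 ± 8.89 in controls (log2 change -0.82). Both had overlapping groups and limma adjusted p of 0.521 and 0.545. Mitochondrial synthetases and their partners (20 tested, 0 passed) had a median of 0.03. Gatb, a subunit of the amidotransferase that makes glutaminyl-tRNA in mitochondria, had 254, 156 and 237 in Calr KO libraries, against 113, 146 and 117 in control libraries. Its groups did not overlap, and its log2 change was 0.76 (SE 0.19, limma adjusted p = 0.27), the lowest adjusted p of the 7 lists. Tars2, the mitochondrial threonyl enzyme, had 716 ± 87.5 in Calr KO cells and 586 ± 47.2 in controls (log2 change 0.28, limma adjusted p = 0.465).

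The list of complex scaffold and tRNA export genes (8 tested, 0 passed) had a median log2 change of 0.03. Aimp1, a scaffold protein of the complex, had 1456 ± 32.7 normalised counts in Calr KO cells and 1525 ± 79.2 in controls (log2 change -0.07). Aarsd1, which edits mischarged alanyl-tRNA, had 607 ± 29.9 in Calr KO cells and 697 ± 46.5 in controls (log2 change -0.20, limma adjusted p = 0.498). Amino acid sensing genes of the mTORC1 and GCN2 pathways (24 tested, 0 passed) had a median of -0.01. Eif2ak4, which encodes GCN2, and Gcn1 had log2 changes of 0.12 and 0.07. Nprl3, a subunit of the GATOR1 inhibitor complex, had 590 ± 24.3 in Calr KO cells and 498 ± 18.9 in controls (log2 change 0.25, limma adjusted p = 0.338), and Rragc, a Rag GTPase, had 1068 ± 50.1 in Calr KO cells and 1151 ± 3.02 in controls (log2 change -0.11).

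The ATF4 regulators and effectors (16 tested, 0 passed) had a median log2 change of 0.03. Ddit4, an inhibitor of mTORC1, had 2342, 2682 and 2169 normalised counts in Calr KO libraries, against 2720, 2868 and 2617 in control libraries, overlapping only through Calr KO replicate 2 (log2 change -0.19, limma adjusted p = 0.498). Atf3, a transcription factor induced downstream of ATF4, had 597, 579 and 525 in Calr KO libraries, against 473, 506 and 511 in control libraries, with no overlap (log2 change 0.19, limma adjusted p = 0.527).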

How the data were processed

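RNA-seq libraries of 3 Calr KO and 3 control wells were used. The deposited values are a signal per gene and library, gene counts that the authors normalised with DESeq2, per the labels. Tools listed without role or order in the submitters' processing notes are DESeq2 1.34.0, STAR 2.6.1d and Salmon 0.14.1, with the mm10 build. The annotation release and the strand setting are not given in the sources used here. Whole reads could not be recovered from the values (3.42% to 4.15% of those worth 100 to 1000 reads were whole within 0.02), so no count model was run.

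Genes with a mean of at least 10 were tested in R 4.3.3 with limma 3.58.1, on log2(value + 1) (variance prior following the mean, two-sided, Benjamini-Hochberg over 13199 genes, threshold 0.05), after the script was tested on simulated data. Fold changes on this scale are understated for low genes. Fits with other pseudocounts, filters, scalings, priors, voom weights, a replicate block and each library left out were run as alternatives. Depth limits precision, and reads without molecular identifiers are not independent molecules.

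The 40 genes and the other lists were chosen with earlier results of these data known. Values per library are given in each class for the 4 genes with the smallest unadjusted p and the 3 with the highest mean, and 2 genes of each further list are named by smallest p. Coordinates, lengths and overlaps are from GENCODE M21 (GRCm38), where 53292 of 55291 symbols matched, and promoters from RefSeq (GRCm38.p6). The grouping of synthetases by ATF4 rests on general knowledge.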

Additional observations from a re-analysis of the deposited data

How the results depend on the processing

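None of the 40 genes passed the test under any of the 17 alternatives run, nor did any gene of the 7 further lists. Over all tested genes, 37 were called (26 higher, 11 lower). A single variance prior called 2 (1 higher, 1 lower), and the replicate block called 26 (21 higher, 5 lower) and 0 of the 40. Leaving out 1 library gave 20 to 34 calls, 14 to 25 of them higher and 4 to 9 lower; the cause was not tested. Replicate numbers were not shown to pair wells. Deviations of same-numbered libraries from their group means correlated at -0.0555, -0.0108 and 0.00145 over all tested genes. Over the 40 genes these correlations were -0.143, 0.0648 and -0.0891. Such correlations cannot show or exclude variation shared by a subset of genes, such as the replicate 2 pattern of the transporters, and pairing was not tested.

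Of 680 recomputed changes of the 40 genes, 654 kept their sign and side of the threshold and 26 changed sign, 21 of these on leaving out 1 library. Phgdh had -0.00034 with equal totals and -0.00038 with voom weights; Slc7a1 had -0.00066 with equal totals, -0.00069 with voom weights and -0.0066 with quantile normalisation. On leaving out 1 library, log2 changes ranged from -0.018 to 0.0218 for Phgdh, -0.221 to 0.0124 for Psph, -0.0096 to 0.0805 for Mthfd1l, -0.0567 to 0.0255 for Slc7a5, -0.0223 to 0.0192 for Slc7a1, -0.0654 to 0.017 for Slc1a4, -0.0038 to 0.0528 for Slc1a5, -0.0027 to 0.0609 for Nars, -0.135 to 0.0994 for Yars, -0.0482 to 0.0441 for Tars and -0.0185 to 0.23 for Lars. The synthetase median ranged from -0.0352 to -0.0103, the last without Calr KO replicate 3. With 3 wells of 1 population per group, differences of a few percent in these genes were not resolved.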
